A study of Mus musculus with 28 samples.

Results

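The genes described here are 8 components and regulators of the complement system, C3, C4b, C1ra, C1s1, C2, Cfb, Cfd and Serping1, taken by symbol from 50600 genes whose reads were counted. All 8 symbols matched 1 gene each, and all 8 passed the low-count filter over the whole series, although Cfb and Cfd did not pass it among luminal cells alone. The RNA came from FACS-sorted stromal (CD49f- EpCAM-) and luminal (CD49f lo EpCAM+) cells of the mammary gland of 7 adult female PdgfrαCre R26mTmG mice. In this reporter a cell that has expressed Cre from the Pdgfra promoter turns from tdTomato to GFP, and its descendants keep the GFP. Of these mice 4 were untreated and 3 had received estrogen plus progesterone (E+P), and both reporter subsets of both lineages were sequenced from every mouse, which makes 28 libraries. The methods put lineage-traced adults at 10 to 12 weeks of age and describe, for wild-type mice, pellets of 0.14 mg estrogen and 14 mg progesterone that last 14 days. Cre was constitutive, so a GFP+ cell need not express Pdgfra at the time of the sort. Hematopoietic and endothelial cells had been gated out in the sort. The comparisons ask how the stroma and the luminal epithelium, the 2 reporter subsets of each, and untreated and hormone-treated glands differed in these genes.

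Complement is a cascade of plasma proteins that marks surfaces for uptake or lysis. In the classical pathway the recognition molecule C1q activates the proteases C1r and C1s, C1s cuts C4 and C2, and the products form an enzyme that cuts C3, the protein on which all routes converge. In the alternative pathway factor D cuts factor B, and a second C3-cutting enzyme results. The C1 inhibitor, encoded by Serping1, inactivates C1r and C1s. Liver makes most of the plasma proteins, fibroblasts and macrophages make several of them locally, and factor D is known as adipsin for its high expression in fat cells.

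The members lie on 4 chromosomes (GENCODE M21, GRCm38), and several are neighbours. C1ra (chr6:124512405-124523443, + strand) and C1s1 (chr6:124530345-124542359, - strand) are 6901 bases apart. C4b (chr17:34728380-34743882), Cfb (chr17:34856374-34862518) and C2 (chr17:34862604-34898265) lie on the - strand of the same chromosome, with 85 bases between Cfb and C2, and C3 (chr17:57203970-57228136, - strand) lies further along it. Cfd is at chr10:79890853-79892655 (+ strand) and Serping1 at chr2:84765387-84775444 (- strand).

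The promoters of C3, C1ra and C1s1 are shown because these genes had the highest levels among the 4 members with a window in the RefSeq table (GRCm38.p6), and because inflammatory transcription factors act on complement promoters. Each window spans a RefSeq start, 5′ to 3′ on the gene's strand (for C1ra this start lies inside the GENCODE gene, downstream of the start given above), and capitals mark matches to 6 motifs searched on both strands.
C3, chr17:57228087-57228386: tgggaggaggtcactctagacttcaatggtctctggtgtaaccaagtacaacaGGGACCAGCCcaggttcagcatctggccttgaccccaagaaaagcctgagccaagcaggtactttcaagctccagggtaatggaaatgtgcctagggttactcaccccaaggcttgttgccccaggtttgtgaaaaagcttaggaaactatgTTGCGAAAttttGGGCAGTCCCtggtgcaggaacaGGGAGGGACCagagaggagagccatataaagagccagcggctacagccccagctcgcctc
C1ra, chr6:124512371-124512670: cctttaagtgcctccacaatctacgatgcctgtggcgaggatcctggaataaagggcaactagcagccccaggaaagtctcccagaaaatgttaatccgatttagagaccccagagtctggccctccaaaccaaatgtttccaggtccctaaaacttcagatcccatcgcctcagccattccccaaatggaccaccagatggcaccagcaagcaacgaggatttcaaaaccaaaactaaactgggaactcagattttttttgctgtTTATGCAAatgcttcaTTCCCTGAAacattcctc
C1s1, chr6:124542310-124542609: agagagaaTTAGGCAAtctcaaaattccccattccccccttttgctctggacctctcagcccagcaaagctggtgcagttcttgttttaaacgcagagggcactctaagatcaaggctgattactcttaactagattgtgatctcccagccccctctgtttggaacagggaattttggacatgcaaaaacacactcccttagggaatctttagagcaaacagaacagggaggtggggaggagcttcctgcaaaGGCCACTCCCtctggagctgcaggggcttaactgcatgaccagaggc
The C/EBP letters TTGCNNAA occurred in all of these windows, 45 bases upstream of the RefSeq start in C3, 16 bases downstream in C1ra and 242 bases upstream in C1s1, and 10.8% of 32851 promoter windows held them. The NF-kB-like motif, GGGA and CC with 4 bases between them, occurred 3 times in C3 and 1 time in C1s1 (20.7% of all windows) and the STAT letters TTCNNNGAA in C1ra (8.30%). The interferon-response motif, GAAA and GAAA with 2 bases between them (3.44%), the estrogen response element, GGTCA and TGACC with 3 bases between them (0.0700%), and CCAAT (37.4%) were not found in these windows, and the window of Cfd held none of the 6 motifs. A second, overlapping window of C1s1 held the NF-kB-like motif only. C4b, C2, Cfb and Serping1 had no entry.

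The libraries held between 8623383 and 24583803 reads counted on genes, with a median of 15329083.5. Levels are CPM, counts scaled to library size with TMM factors, and differences are log2 fold changes ± SE from edgeR's quasi-likelihood F-test, called at an adjusted p of 0.01. Counting sets limits for several members. Of the exon bases of Cfb 79.5%, and of C2 42.8%, are shared on the same strand with a read-through gene, Gm20547, that had 0 counts in all 28 libraries, and reads on such bases belong to more than 1 gene. Windows of 75 bases, the read length, were identical in another gene for 42.4% of C1ra (C1rb), 22.7% of C4b (C4a) and 13.0% of C1s1 (C1s2), so their counts are uncertain to that extent. An antisense gene, Gm16567, overlaps 18.4% of the exon bases of C1s1 and reached a mean of 5.08 CPM at most, and whether the counts used the strand is not stated. In sorted bulk samples, fewer cells of a type and less RNA per cell cannot be told apart.

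C1ra and C1s1, the protease pair of C1, were transcribed in all stromal libraries and at much lower levels in luminal ones. C1ra stood at 400, 545, 485 and 490 CPM in GFP+ stroma of untreated mice 1 to 4 and at 578, 581 and 582 CPM after E+P. In tdTomato+ stroma it stood at 132, 55.1, 126 and 80.2 CPM untreated and at 57.7, 50.5 and 68.4 CPM after E+P. The GFP+ and tdTomato+ ranges were far apart in both treatments. In GFP+ luminal cells C1ra read 4.95, 3.43, 4.00 and 2.36 CPM untreated against 0.476, 0.754 and 0.375 CPM after E+P, and in tdTomato+ luminal cells 8.47, 8.52, 8.97 and 14.2 CPM against 0.241, 0.984 and 1.14 CPM. Every E+P-treated luminal library was thus below every untreated one. C1s1 stood at 1200, 1380, 1175 and 1096 CPM in untreated GFP+ stroma and at 1195, 1162 and 1154 CPM after E+P, with 430, 358, 432 and 386 CPM and 377, 349 and 360 CPM in the tdTomato+ stroma of the same mice. Its spread was narrow in both stromal subsets, and treatments overlapped. In untreated luminal cells C1s1 read 4.50, 2.32, 1.94 and 5.11 CPM in the GFP+ subset and 7.49, 15.8, 11.8 and 74.3 CPM in the tdTomato+ subset. After E+P it read 0.272, 0.593 and 0.458 CPM and 0.401, 1.37 and 0.761 CPM. The tdTomato+ luminal library of untreated mouse 4 stood far above the other libraries of its group in C1s1 and above them in C1ra.

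C4b and C2 encode the substrates of C1s. C4b stood at 540, 1156, 572 and 699 CPM in untreated GFP+ stroma and at 1470, 851 and 1472 CPM after E+P. In tdTomato+ stroma it read 284, 45.8, 172 and 119 CPM untreated and 150, 108 and 119 CPM after E+P. The GFP+ stromal libraries were above all others. In GFP+ luminal cells C4b read 57.3, 105, 29.7 and 120 CPM untreated and 9.19, 12.1 and 13.4 CPM after E+P, without overlap. In tdTomato+ luminal cells it read 14.8, 4.69, 8.97 and 33.5 CPM untreated and 8.02, 7.78 and 10.8 CPM after E+P, with overlap. C2 had another order of groups. Its mean was highest in tdTomato+ luminal cells after E+P, at 26.1, 30.0 and 21.9 CPM, against 2.01, 2.44, 1.30 and 1.79 CPM in the untreated mice. GFP+ luminal cells stayed at 1.27, 0.907, 0.514 and 0.0787 CPM untreated and 2.25, 1.89 and 0.583 CPM after E+P. GFP+ luminal cells held the least C2 of the 4 sorted populations. Stromal C2 stood at 13.1, 24.8, 16.9 and 14.8 CPM (GFP+, untreated), 16.7, 15.4 and 21.5 CPM (GFP+, E+P), 4.38, 9.31, 12.4 and 7.68 CPM (tdTomato+, untreated) and 10.6, 5.94 and 15.2 CPM (tdTomato+, E+P). The E+P-treated tdTomato+ luminal libraries were above all of these but 1, the GFP+ stroma of untreated mouse 2. Among the members, C2 was the only one with its highest group mean in luminal cells.

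C3, the protein cut by the enzymes of all pathways, carried the largest share of the reads of the 8 genes, from 48.8% of their summed CPM in E+P-treated GFP+ stroma to 97.7% in E+P-treated GFP+ luminal cells. It stood at 6213, 9413, 6404 and 4632 CPM in untreated GFP+ stroma and at 3935, 2800 and 5327 CPM after E+P. In tdTomato+ stroma the untreated mice ranged widely, at 3973, 223, 2028 and 1000 CPM, against 640, 1423 and 1254 CPM after E+P. GFP+ luminal cells held 463, 164, 299 and 634 CPM untreated and 632, 596 and 706 CPM after E+P, and tdTomato+ luminal cells 113, 18.2, 99.7 and 151 CPM and 143, 173 and 182 CPM. Each C3 group overlapped the next one in the order of means, so only groups further apart in that order were separate.

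Cfb and Cfd, factors B and D of the alternative pathway, were near the limit of counting. For Cfb this need not mean little RNA, since 79.5% of its exon bases are shared with Gm20547. Cfb did not exceed 1.95 CPM in any library, with 59 and 51 counts in all in untreated and E+P-treated GFP+ stroma, 20 and 32 in tdTomato+ stroma, and 2 to 10 in the 4 luminal groups. Cfd reached 6.75 CPM in GFP+ stroma of untreated mouse 2 and 2.65 CPM in that of mouse 1, read 0.427 and 0.367 CPM in mice 3 and 4, and read 0.325, 0.634 and 0.985 CPM after E+P. In tdTomato+ stroma it read 3.23, 0.271, 0.199 and 0 CPM untreated and 0.102, 0.0495 and 0 CPM after E+P. In GFP+ luminal cells Cfd had 3 counts in all untreated and 2 after E+P. In tdTomato+ luminal cells it had 0 counts in all 7 libraries, which allows up to 0.0398 CPM in the untreated group and 0.0528 CPM in the E+P group (3 counts over a group, counting error only). Of 7 adipocyte markers, which summed to 791 to 1392 CPM in GFP+ and 143 to 443 CPM in tdTomato+ stroma, Adipoq, a defining adipocyte gene, was at or below 1.33 CPM in every library. Plin1, another adipocyte gene, reached 7.325 CPM in the tdTomato+ and 2.869 CPM in the GFP+ stromal libraries of untreated mice. After E+P its highest values there were 0.9707 and 0.1585 CPM. In tdTomato+ stroma its medians were closer, at 1.109 CPM untreated and 0.9397 CPM after E+P. Adipoq read 0 CPM in every stromal library of the treated mice. The part of the adipocyte markers in the Cfd values was not tested.

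Serping1, which encodes the C1 inhibitor, separated the lineages most. It stood at 1238, 1580, 1241 and 1240 CPM in untreated GFP+ stroma and at 1253, 1025 and 1300 CPM after E+P. In tdTomato+ stroma it stood at 507, 313, 452 and 369 CPM and at 377, 292 and 398 CPM. No luminal library exceeded 6.08 CPM, the value of tdTomato+ luminal cells of untreated mouse 3. The other luminal libraries read 2.85, 5.54, 0.915 and 2.44 CPM (GFP+, untreated), 0.408, 0.808 and 1.42 CPM (GFP+, E+P), 0.930, 0.183 and 0.272 CPM (tdTomato+, untreated mice 1, 2 and 4) and 0.481, 0.727 and 0.666 CPM (tdTomato+, E+P).

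**Figure D1:**
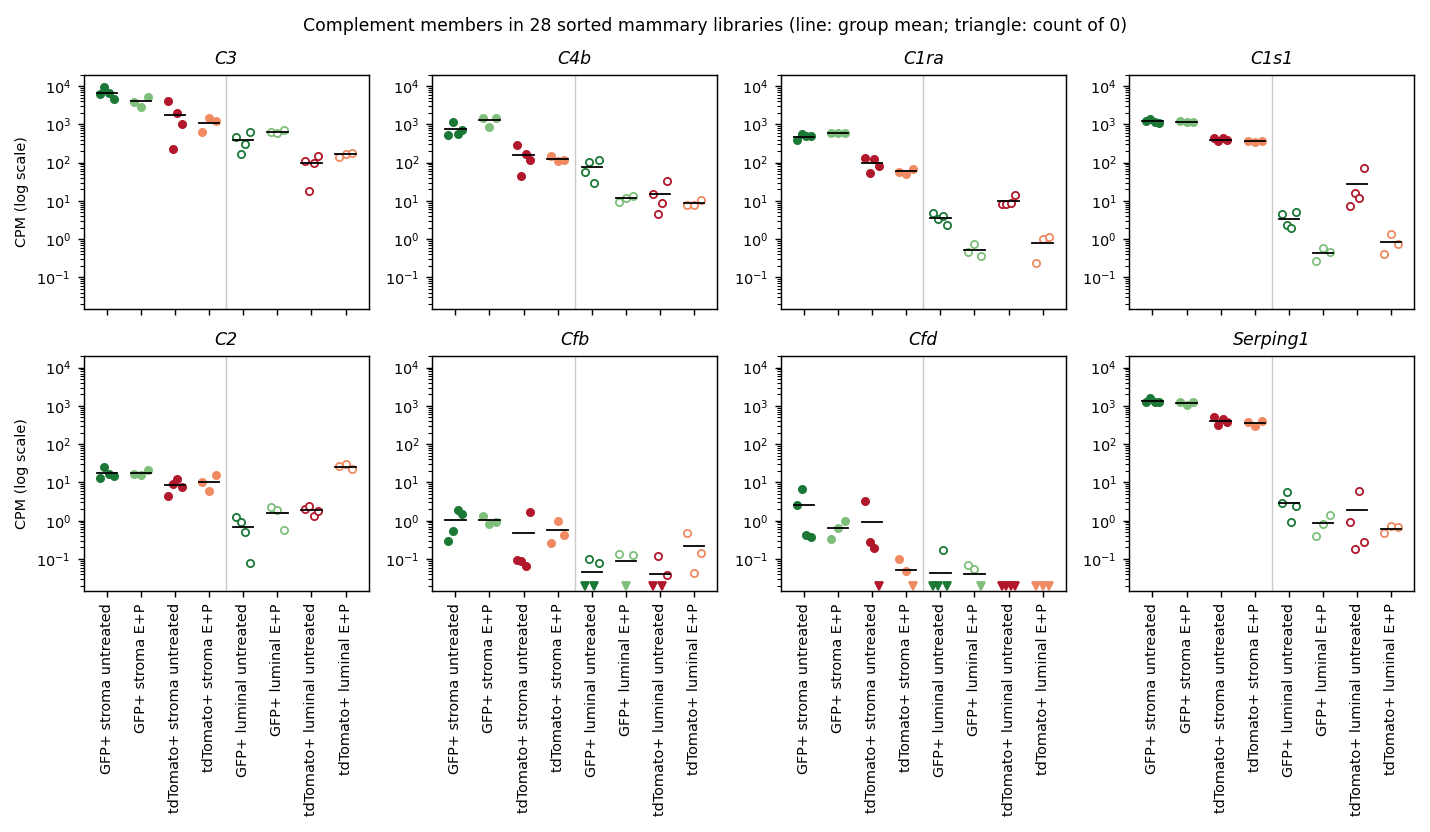
CPM of each member (log axis) in the 28 libraries by group, filled points for stroma and open points for luminal cells, with the group mean as a line and a triangle for a count of 0. C1ra, C1s1 and Serping1 are lower in every luminal library than in every stromal one, C3 falls in overlapping steps, and C2 is highest in tdTomato+ luminal cells after E+P at 21.9 to 30.0 CPM.

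Per kilobase of exon not shared with another gene on the same strand, C3 led in every group. In untreated GFP+ stroma the level was 1296 CPM per kb for C3, 570 for Serping1, 388 for C1s1, 161 for C1ra, 130 for C4b, 7.85 for C2, 2.76 for Cfd and 1.84 for Cfb. Thus the C1 inhibitor and the proteases that it inactivates were all well above C2, the second substrate of C1s. In E+P-treated tdTomato+ luminal cells the order was C3 at 32.3, C2 at 11.8 and C4b at 1.56 CPM per kb, with each of the others under 0.4. The short unshared stretch of Cfb, 579 bases, makes its value the least certain.

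All 8 members were higher in stroma than in luminal cells, where 33.0% of 19569 genes tested were called higher and 63.5% were called in either direction. The differences were 9.05 ± 0.42 for Serping1, 8.07 ± 0.35 for C1s1, 6.62 ± 0.18 for C1ra, 4.29 ± 0.32 for C4b, 3.43 ± 0.36 for C3 and 2.26 ± 0.23 for C2 on the log2 scale (edgeR adjusted p from 9.55e-20 for C1ra to 1.23e-08 for C3). Cfb (3.18 ± 0.60, edgeR adjusted p 3.87e-05) and Cfd (4.81 ± 0.98, edgeR adjusted p 0.000183) rest on few counts. The median of the members was 4.55, or 3.86 with Cfd at the floor where a group had 0 counts, against 0.02 over all genes. Averaged over the subsets, stroma was above luminal cells in 7 of 7 mice for each member (exact two-sided sign-flip test, in which 0.0156 is the smallest p for 7 mice, p 0.0156). The C2 difference depends on the subset and treatment compared, since tdTomato+ luminal cells after E+P were above all tdTomato+ stromal libraries.

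The sorted cells matched their lineage in the main. Summed over 6 fibroblast markers (Pdgfra, Col1a1, Col1a2, Col3a1, Dcn and Lum), GFP+ stroma held 30500 to 60060 CPM, tdTomato+ stroma 1762 to 6414 CPM and luminal cells 7.10 to 108 CPM. Luminal keratin and adhesion markers summed to 3655 to 6686 CPM in luminal cells and to 431 CPM at most in stroma. The fibroblast markers in luminal libraries bear on the low members there, and their part was not tested. Per 1000 CPM of these markers, Serping1 had a median of 32.2 in GFP+ stroma and 123 in tdTomato+ stroma of untreated mice, and medians of 17.5 to 48.0 in the 4 luminal groups. The 17.5 was in tdTomato+ luminal cells after E+P, where the marker sum was 27.3 to 57.5 CPM and Dcn alone held 21.7 to 51.4 CPM. C3, by the same measure, read 137.9 in GFP+ and 343 in tdTomato+ stroma of untreated mice, against medians of 4152 to 25550 in the luminal groups. C4b and C2 were likewise higher per fibroblast marker in all luminal groups than in any stromal group by their medians.

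Within the stroma 6 of 8 members were higher in GFP+ than in tdTomato+ cells, where 20.6% of 17783 genes were called higher and 42.0% in either direction. The differences were 2.78 ± 0.36 for C4b (edgeR adjusted p 4.48e-05), 2.78 ± 0.17 for C1ra (edgeR adjusted p 1.02e-09), 1.86 ± 0.50 for C3 (edgeR adjusted p 0.00862), 1.70 ± 0.12 for Serping1 (edgeR adjusted p 3.11e-09), 1.63 ± 0.08 for C1s1 (edgeR adjusted p 6.48e-11) and 0.88 ± 0.24 for C2 (edgeR adjusted p 0.00500). Each of these 6 was higher in the GFP+ stroma of 7 of 7 mice (exact sign-flip test, two-sided, p 0.0156). Cfd differed by 2.45 ± 0.96 (edgeR adjusted p 0.0412) and Cfb by 1.00 ± 0.72 (edgeR adjusted p 0.260), neither past the threshold. Among the alternative fits with all mice Cfd differed by 2.40 to 2.65. Its lowest adjusted p among them was past the threshold and its highest was not. The median of the 8 was 1.78, against -0.01 over all genes. With the mouse as a replicate block, C3 was no longer past the threshold (2.09, edgeR adjusted p 0.0320), and the call of C3 was also lost when any of 5 of the 7 mice was left out (edgeR adjusted p up to 0.0439), and that of C2 when any of 4 was (edgeR adjusted p up to 0.0188), with library size only (0.81, edgeR adjusted p 0.0105) and with all 8 groups fitted (0.90, edgeR adjusted p 0.0111). The subsets also differed in make-up: 6 skeletal muscle markers summed to 1928 to 17220 CPM in tdTomato+ stroma and to 4.47 CPM at most in GFP+ stroma, and 6 pericyte and smooth muscle markers to 5713 to 8914 CPM against 630 to 827 CPM. The 5 endothelial markers summed to 26.9 to 243 CPM in tdTomato+ and 23.1 to 58.9 CPM in GFP+ stroma. The 8 leukocyte markers summed to 24.5 to 42.0 CPM in tdTomato+ and 4.12 to 9.45 CPM in GFP+ stroma, with Ptprc at 6.24 to 19.0 CPM against 0.682 CPM at most. Adgre1 was at 0 in all 7 tdTomato+ libraries. Lyz2 read 2.708 to 9.488 CPM and Fcer1g 0.4087 to 3.014 CPM in them, against 0.6204 and 0.122 CPM at most in GFP+ stroma. The ranges of Csf1r, Cd68, Cd14 and Tyrobp overlapped between the subsets. The part of these other cells in the differences was not tested.

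The luminal subsets showed another pattern, with 3 of 6 tested members called, where 34.7% of 16538 genes were called. C3 was higher in GFP+ luminal cells by 1.97 ± 0.40 (edgeR adjusted p 0.00146), in 7 of 7 mice (exact sign-flip test, p 0.0156). C2 was lower in GFP+ luminal cells, in 7 of 7 mice (-2.79 ± 0.36, edgeR adjusted p 3.75e-05; exact sign-flip p 0.0156), and C1ra was lower in 6 of 7 (-1.06 ± 0.29, edgeR adjusted p 0.00847; exact sign-flip p 0.0469). With the mouse as a replicate block C1ra missed the threshold (-1.03, edgeR adjusted p 0.0210) and C1s1 passed it (-1.73, edgeR adjusted p 0.00917). Without the block C1s1 stood at -1.997 ± 0.60 (edgeR adjusted p 0.0158) and was lower in the GFP+ cells of 7 of 7 mice. The call of C1ra was lost without any of 6 of the 7 mice (edgeR adjusted p up to 0.0997), with library size only (-0.92, edgeR adjusted p 0.0205) and with limma-voom (-1.04, adjusted p 0.0431), and that of C3 without E+P-treated mouse 1 or 2 (edgeR adjusted p 0.0118 and 0.0105). C4b, at 1.32 ± 0.41 (edgeR adjusted p 0.0192), was not called, but it passed the threshold when 1 of the mice was left out (edgeR adjusted p 0.00358). Among the alternative fits with all mice, its lowest adjusted p was past the threshold too and its highest was not. Serping1, at 0.56 ± 0.70 (edgeR adjusted p 0.536), was not called, and it differed by 1.69 (edgeR adjusted p 0.00853) without untreated mouse 3. The tdTomato+ luminal library of that mouse held 73.6 CPM of fibroblast and 37.7 CPM of skeletal muscle markers, against 7.10 to 18.4 CPM and 0.815 to 1.40 CPM in the other untreated libraries of that subset. The untreated GFP+ luminal libraries held 35.1 to 108 CPM of fibroblast markers, with 26.9 CPM of skeletal muscle markers in that of mouse 4. After E+P the fibroblast markers summed to 21.95 to 24.8 CPM in GFP+ and 27.3 to 57.5 CPM in tdTomato+ luminal cells. The part of these markers in the Serping1 difference was not tested. Luminal subtype markers moved with the subsets: 4 hormone-sensing markers (Esr1, Pgr, Prlr and Foxa1) summed to 145 to 1677 CPM in GFP+ and 1687 to 5003 CPM in tdTomato+ luminal cells, and 4 progenitor markers to 1011 to 2277 CPM against 95.1 to 663 CPM. Their part was not tested.

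The GFP+ to tdTomato+ difference itself differed between stroma and luminal cells for 3 members, by 3.85 ± 0.34 for C1ra (edgeR adjusted p 1.77e-09), 3.66 ± 0.45 for C2 (edgeR adjusted p 2.55e-07) and 3.63 ± 0.60 for C1s1 (edgeR adjusted p 2.94e-05), where 33.2% of genes were called. For each of the 3 the difference was larger in the stroma in 7 of 7 mice (exact sign-flip p 0.0156). For C3 it was -0.12 ± 0.64 (edgeR adjusted p 0.954), and for C4b 1.44 ± 0.56 (edgeR adjusted p 0.0394).

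**Figure D2:**
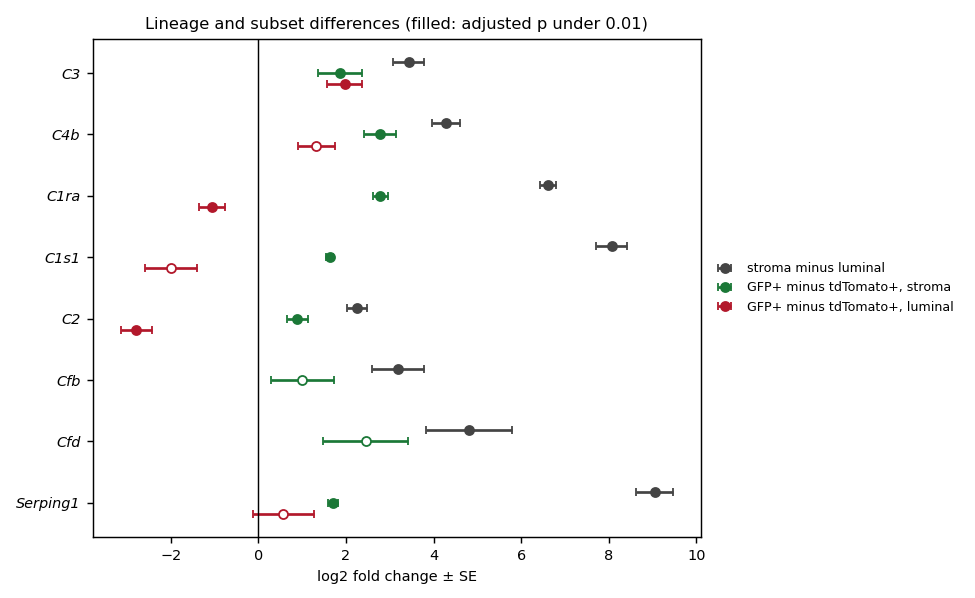
Log2 fold change ± SE of each member for stroma minus luminal cells (all 28 libraries) and for GFP+ minus tdTomato+ cells within stroma and within luminal cells (14 libraries each), filled where the adjusted p was under 0.01. The stromal subset difference of C1ra is 2.78 and the luminal one -1.06, while C3 stands at 1.86 and 1.97.

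After E+P, 0 of 8 members were called in either stromal subset (edgeR at an adjusted p of 0.01), where 0.231% of genes were called in GFP+ and 0.124% in tdTomato+ stroma. At an unadjusted p under 0.05, C1ra (-0.74 ± 0.23, edgeR p 0.00532, adjusted p 0.125) and Cfd (-3.91 ± 1.55, edgeR p 0.0221, adjusted p 0.225) stood out in tdTomato+ stroma, and no member in GFP+ stroma had such a p. DESeq2 and limma-voom also called 0 in both. Without the low-count filter edgeR called 2 in each subset, C3 (-0.72) and C4b (0.78) in GFP+ and C3 (-0.67) and C1ra (-0.72) in tdTomato+ stroma, in a fit that called 459 and 840 genes in all. C4b stood at 0.78 ± 0.48 in GFP+ stroma (edgeR adjusted p 0.803) and had the higher value after E+P in 11 of 12 pairs of a treated and an untreated mouse (exact permutation test, two-sided, p 0.114). C1ra was higher in all 12 such pairs there, by a mean of 0.28 (exact permutation p 0.0571). C1s1 and Serping1 differed by -0.04 ± 0.12 and -0.14 ± 0.17 in GFP+ and by -0.15 ± 0.12 and -0.20 ± 0.17 in tdTomato+ stroma, with the smallest errors of the members. The E+P difference did not differ between the stromal subsets for any member at the threshold, where 0.0450% of genes were called, with C1ra nearest at 1.02 ± 0.32 (edgeR p 0.00544, adjusted p 0.256). It was the only member with an unadjusted p under 0.05, DESeq2 and limma-voom called 0, and without the low-count filter edgeR called C4b (1.06) and C1ra (1.00).

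In luminal cells E+P changed the C1 proteases and C2. C1ra fell by 2.79 ± 0.44 in GFP+ cells (edgeR adjusted p 0.00148) and by 3.57 ± 0.43 in tdTomato+ cells (edgeR adjusted p 6.75e-05), where 5.96% and 14.1% of genes were called. C1s1 fell by 4.91 ± 0.86 in tdTomato+ cells (edgeR adjusted p 0.00160), and it stood at -2.93 ± 0.90 in GFP+ cells (edgeR adjusted p 0.0475), past the threshold when untreated mouse 4 was left out (-2.69, edgeR adjusted p 0.00507). Both genes were lower in all 12 pairs in both subsets (exact permutation test of 3 against 4 mice, two-sided, p 0.0286, the smallest possible). C2 rose by 3.81 ± 0.47 in tdTomato+ luminal cells (edgeR adjusted p 9.65e-05), in 12 of 12 pairs (exact permutation p 0.0286), and stood at 1.13 ± 0.55 in GFP+ luminal cells (edgeR adjusted p 0.184). C4b stood at -2.75 ± 0.63 in GFP+ luminal cells, short of the threshold (edgeR adjusted p 0.0126) and lower in 12 of 12 pairs (exact permutation p 0.0571), and at -0.79 ± 0.59 in tdTomato+ luminal cells (edgeR adjusted p 0.353). C3 stood at 0.73 ± 0.54 and 0.82 ± 0.54 and Serping1 at -1.69 ± 1.00 and -1.48 ± 1.02, none called. In all, 1 of 6 tested members was called in GFP+ and 3 of 6 in tdTomato+ luminal cells, and the median of the 6 was -2.22 and -1.13, against -0.03 and -0.05 over all genes.

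The luminal calls had limits of counting and of single mice. C1ra in E+P-treated luminal cells rests on 30 counts in the GFP+ and 50 in the tdTomato+ group, and C1s1 on 26 and 53. In GFP+ luminal cells the C1ra call was lost without E+P-treated mouse 2 (edgeR adjusted p 0.0103) or 3 (edgeR adjusted p 0.0123), and 3 members were called without untreated mouse 4. In tdTomato+ luminal cells the C1s1 call was lost without E+P-treated mouse 1, 2 or 3 (edgeR adjusted p 0.0113 to 0.0159), its value without untreated mouse 4 was -3.70, limma-voom gave -4.49 (adjusted p 0.0365), and edgeR with only the compared groups -4.91 (adjusted p 0.0180). Fibroblast markers in GFP+ luminal cells summed to 35.1 to 108 CPM untreated and 21.95 to 24.8 CPM after E+P, and per 1000 CPM of them C1ra had a median of 57.4 untreated and 19.2 after E+P, against 10.7 in GFP+ and 28.6 in tdTomato+ stroma after E+P. In tdTomato+ luminal cells the corresponding medians were 790 and 19.9, the second with Dcn alone at 21.7 to 51.4 CPM of the marker sum. C1s1 had medians of 1240 and 14.7 there, against 21.4 in GFP+ and 173 in tdTomato+ stroma after E+P. The hormone-sensing markers in tdTomato+ luminal cells went from 3304 to 5003 CPM untreated to 1687 to 2757 CPM after E+P (0 of 4 called). The progenitor markers there went from 170 to 663 CPM to 95.1 to 161 CPM (2 of 4 called lower, where 14.1% of all genes were called). In GFP+ luminal cells the hormone-sensing markers went from 252 to 1677 CPM to 145 to 251 CPM (2 of 4 called lower, where 5.96% were called). The progenitor markers there went from 1406 to 2277 CPM to 1011 to 1194 CPM (0 of 4 called). The part of these markers was not tested. Beside the higher C2, 4 basal markers went in sum from 4.70 to 8.96 CPM untreated to 31.7 to 50.3 CPM after E+P in tdTomato+ luminal cells. Trp63 led them, at 18.7 to 24.5 CPM after E+P. The sum of the leukocyte markers went from 24.4 to 50.1 CPM down to 13.3 to 22.7 CPM, with Ptprc at 0.434 CPM at most. Cd14 was the largest part of this sum, at 19.66 to 44.51 CPM untreated and 7.328 to 13.04 CPM after E+P. Cd14 is also 1 of the progenitor markers, so both sums hold it. In untreated GFP+ luminal cells it read 114.1 to 213.3 CPM, with Ptprc at 0.5144 CPM at most. In tdTomato+ luminal cells the median of Cd68 was lower after E+P as well. Csf1r went the other way, from 0.145 to 0.620 CPM untreated to 1.41 to 3.24 CPM after E+P. Lyz2 read 0.388 CPM at most untreated and 0.3806 to 6.094 CPM after E+P. The sum thus does not stand for every leukocyte marker. The part of the basal and leukocyte markers was not tested either.

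The E+P difference was not called as different between the luminal subsets for any of the 6 members tested (edgeR), where 2.27% of genes were called. The nearest was C2, at -2.67 ± 0.73 for GFP+ minus tdTomato+ (edgeR p 0.00263, adjusted p 0.0435), which DESeq2 called (-2.66, adjusted p 0.00236) and limma-voom did not. C4b had an unadjusted p under 0.05 as well (-1.96 ± 0.82, edgeR p 0.0348, adjusted p 0.188). The call of C2 in tdTomato+ but not GFP+ luminal cells is therefore not shown to be a difference between the subsets at the threshold used.

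**Figure D3:**
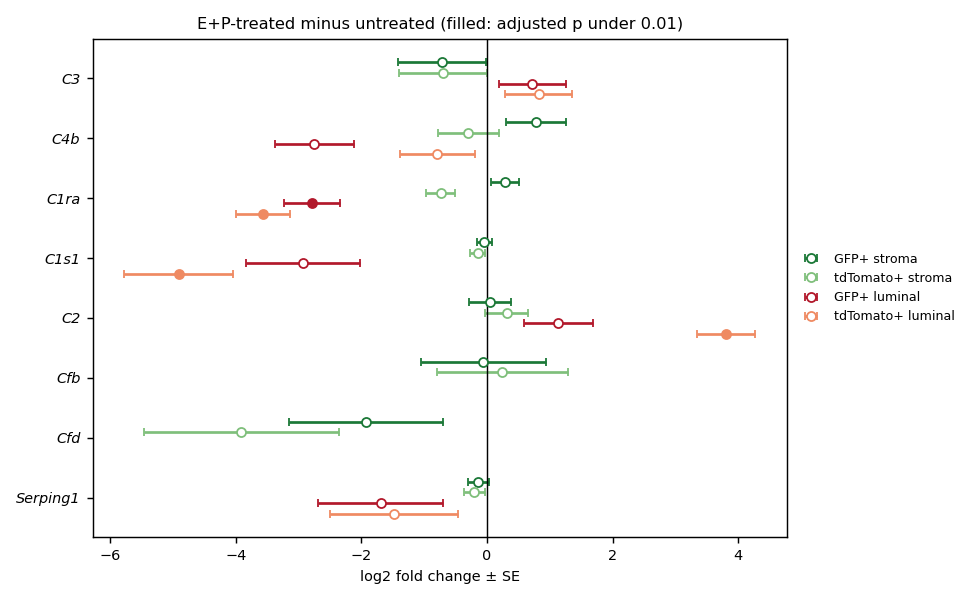
Log2 fold change ± SE of each member for E+P-treated (n = 3 mice) minus untreated (n = 4 mice) cells in the 4 sorted populations, filled where the adjusted p was under 0.01. The called changes are C1ra in both luminal subsets (-2.79 and -3.57) and C1s1 (-4.91) and C2 (3.81) in tdTomato+ luminal cells, and no stromal change is called.

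Of 53 other complement genes, 31 passed the filter over the series, and 19 were higher and 4 lower in stroma than in luminal cells, where 33.0% of all genes were called higher and 63.5% in either direction. Of the 16 other initiators of the classical and lectin pathways 6 were higher in stroma, Colec12 (9.79), C1rb (5.83), Colec11 (4.83), C1s2 (3.59), C1rl (1.36) and C4a (1.09). C1rb rests on few counts, 13 to 55 in a stromal group and 1 at most in a luminal group. The windows shared with C1ra, C1s1 and C4b make the counts of C1rb, C1s2 and C4a uncertain too. Of the fluid-phase genes of the alternative pathway Cfi (3.40) and Cfp (0.79) were higher, and of the terminal components C7 (9.30) and Hc (4.70) were higher and C9 (-2.95) lower. Of the regulators Vtn (10.07), Thbd (9.68), Csmd1 (2.80), Csmd2 (2.61), Cd55 (1.72) and Cr1l (0.28) were higher and Susd4 (-3.30), Clu (-2.25) and Cd59a (-1.35) lower, and of the receptors Itgb2 (3.88), Cd93 (3.46) and C1qbp (0.25) were higher. Colec12, a scavenger collectin, had means of 258 CPM in GFP+ and 57.5 CPM in tdTomato+ stroma of untreated mice, and C1qa, C1qb and C1qc, the chains of C1q that macrophages make, did not exceed a group mean of 0.264 CPM. Of the terminal components, Hc, which encodes C5, stood at 319 ± 97 CPM (SD, n = 4) and 13.3 ± 19.7 CPM (SD, n = 4) in these groups and C7 at 28.3 and 6.16 CPM, while C9 did not exceed 0.686 CPM and C6 1.04 CPM. GFP+ stroma thus held RNA of the C1 proteases, of their substrates, of C3 and of C5, beside that of the inhibitor Serping1, while C1q and the pore-forming C9 were near 0.

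Between the stromal subsets, 7 of the 28 other complement genes tested were higher in GFP+ and 8 lower, where 20.6% of all genes were called higher and 42.0% in either direction. Those higher were Hc (5.58), Colec10 (5.19), Masp1 (3.89), C7 (3.16), Colec12 (2.47), C1rl (1.37) and Cr1l (0.71). Those lower were C5ar2 (-6.77), Colec11 (-5.38), Cd93 (-4.33), Clu (-3.45), Csmd2 (-3.41), Csmd1 (-3.26), Vtn (-1.999) and Thbd (-1.84). Of the lower ones Thbd, which encodes thrombomodulin, averaged 273 CPM in GFP+ stroma and 896 CPM in tdTomato+ stroma of untreated mice, and Clu, which encodes the fluid-phase regulator clusterin, averaged 28.9 and 190 CPM. In luminal cells of untreated mice Clu averaged 724 CPM (GFP+) and 440 CPM (tdTomato+). Between the luminal subsets 6 of 20 tested genes were higher in GFP+ and 1 was lower, Cd59b (2.22), Cd59a (1.53), Cd55 (1.18), Clu (0.61), Cr1l (0.45) and C1qbp (0.43) against Fcna (-4.86), where 34.7% of all genes were called, a share near that of these genes. Of these 6, Cd55, Cd59a, Cd59b and Cr1l encode membrane regulators that protect cells from complement.

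After E+P, 1 of 28 other complement genes was called in GFP+ stroma, Vtn, the gene of vitronectin (-1.33, edgeR adjusted p 0.00391), and 0 of 28 in tdTomato+ stroma, with an unadjusted p under 0.05 for 4 and 6 genes (edgeR, the only tool applied to these genes). Of all genes, 0.231% and 0.124% were called in these subsets. In GFP+ luminal cells, where 5.96% of all genes were called, 3 of 20 fell, Hc (-3.82) and the genes of the lectin-pathway proteases, Masp1 (-4.02) and Masp2 (-3.65). In tdTomato+ luminal cells, where 14.1% were called, 5 fell, Hc (-6.13), C1rl (-3.96), Masp2 (-3.31), Cd55 (-1.02) and Cr1l (-0.62), and 2 rose, Fcna (5.43) and C1qbp (0.46). Masp2 was not called in stroma, but it was lower there too after E+P, without overlap. In GFP+ stroma it read 2.171 to 3.396 CPM untreated and 0.197 to 0.7396 CPM after E+P. In tdTomato+ stroma it read 1.046 to 3.795 CPM untreated and 0.3675 to 0.7153 CPM after E+P. Hc read 14.6 to 40.0 CPM in the untreated tdTomato+ luminal libraries and 0.666 CPM at most after E+P, without overlap (edgeR adjusted p 0.000305). Fcna, which encodes ficolin A of the lectin pathway, read 2.17 to 8.72 CPM after E+P and 0.289 CPM at most untreated in tdTomato+ luminal cells, and it had 0 counts in all stromal libraries. Among the 20 genes the median E+P change was -1.26 in tdTomato+ and -0.82 in GFP+ luminal cells, against -0.05 and -0.03 over all genes, and in the tests of a difference between subsets 0 of 28 were called in stroma and 0 of 20 in luminal cells (edgeR, unadjusted p under 0.05 for 7 and 1). Of all genes, 0.0450% and 2.27% were called in these tests.

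**Figure D4:**
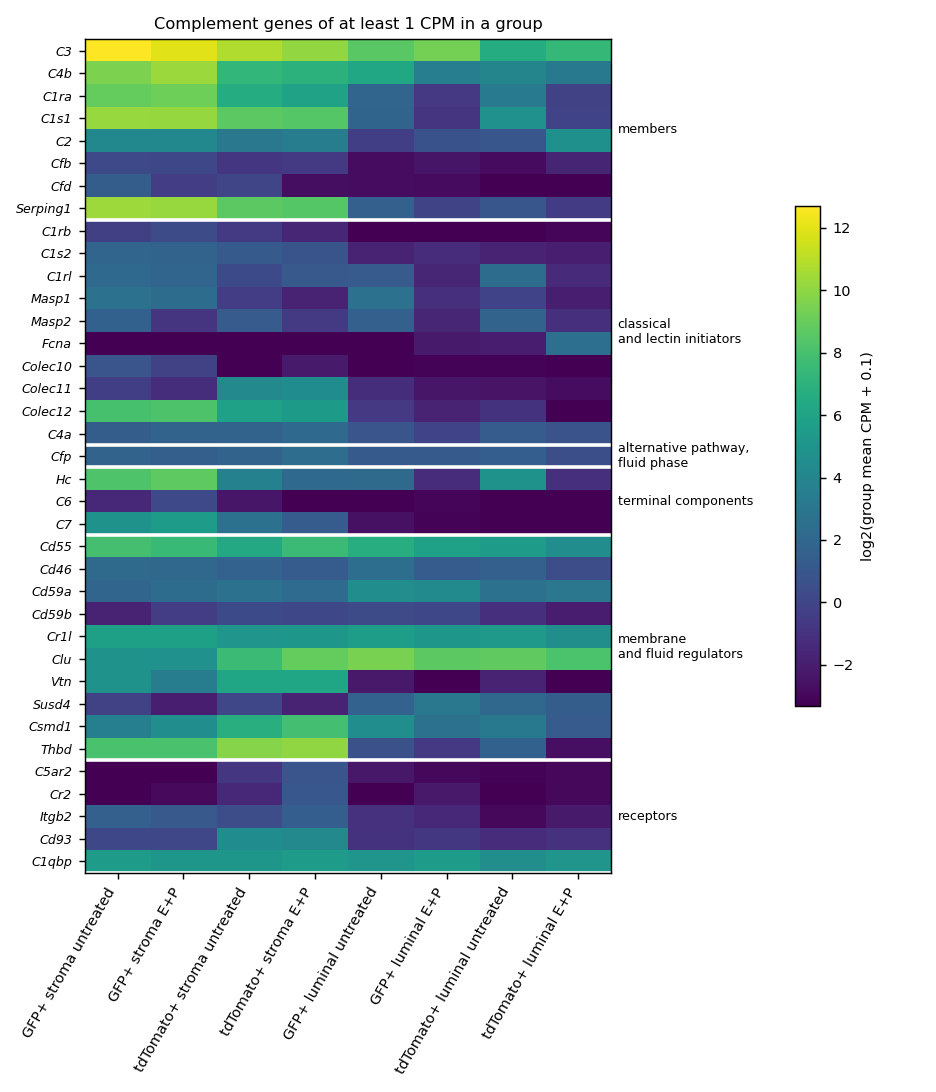
Group mean level, as log2(CPM + 0.1), of the 37 of 61 complement genes (members included) that reached 1 CPM in at least 1 group, arranged by role, in the 8 groups. In GFP+ stroma C3, Serping1, C1s1, C4b and C1ra are the highest, Hc goes from 28.2 CPM untreated to 0.350 CPM after E+P in tdTomato+ luminal cells, and Clu is among the highest in luminal cells.

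The inducer set held 17 genes of transcription factors, cytokines and cytokine receptors, listed for their bearing on complement genes. Of these, 14 were higher in stroma than in luminal cells and 0 lower, where 33.0% of all genes were called higher. Within the stroma 3 were higher in GFP+ cells, Ifngr1 (1.78), Il6ra (1.69) and Ifngr2 (0.87), and 7 lower, Il6 (-3.26), Stat3 (-1.18), Osmr (-1.18), Cebpb (-1.17), Il1r1 (-0.80), Tnfrsf1a (-0.68) and Rela (-0.33), where 42.0% of all genes were called. Between the luminal subsets 7 were higher in GFP+ cells, Cebpd (1.62), Ifngr1 (1.36), Cebpb (1.03), Osmr (0.94), Stat3 (0.53), Nfkb1 (0.48) and Ifngr2 (0.45), and 5 lower, Pparg (-2.25), Il1r1 (-0.79), Irf1 (-0.63), Il6st (-0.62) and Tnfrsf1a (-0.57), where 34.7% were called. After E+P 0 of 17 were called in either stromal subset (edgeR, unadjusted p under 0.05 for 3 in each), where 0.231% of all genes were called in GFP+ and 0.124% in tdTomato+ stroma. In GFP+ luminal cells, where 5.96% of all genes were called, 3 fell, the cytokine receptor genes Il1r1 (-1.57), Osmr (-1.43) and Tnfrsf1a (-0.59). In tdTomato+ luminal cells, where 14.1% were called, 4 fell, Osmr (-1.67), Il1r1 (-1.62), Irf1 (-1.19) and Stat3 (-0.57), and 2 rose, Cebpa (1.83) and Il6st (0.57).

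Over the 28 libraries C1ra and C1s1 varied together, with r = 0.98 over log2 CPM, also within the stroma (r = 0.98) and within luminal cells (r = 0.93), 14 libraries each. These correlations are descriptions over libraries that share mice and lineages. Within a lineage they span both subsets and both treatments. The separate C1ra and C1s1 levels of GFP+ and tdTomato+ stroma, and of untreated and E+P-treated luminal cells, therefore enter them. Serping1 followed both in the stroma (r = 0.98 with C1ra and 0.99 with C1s1) but not in luminal cells (r = 0.16 and 0.02), and C3 was at r = 0.84 with C1ra in the stroma and -0.52 in luminal cells. Among 11399 other genes with a mean of at least 10 CPM in a group, the nearest to C1ra were Lrp1 (r = 0.98), Gsdmd and 2510009E07Rik, and to C1s1 Nrp1 (r = 0.98), Lrp1 and Eno2. The nearest to Serping1 were Abca8a (r = 0.99), Epha3 and Ccl7, to C4b Pkd2 (r = 0.97), Notch2 and Serpinb6a, and to C3 Gas7 (r = 0.95), Itsn1 and Celf2. For C2 they were Pdia5 (r = 0.94), Soat1 and Tsku, for Cfd Dkk2 (r = 0.86), Serpina3c and Cdh9, and for Cfb Fbxw8 (r = 0.86), Fmnl2 and Cntn1. Likeness over all libraries need not hold within a lineage. Nrp1 and C1s1 had r = 0.23 within the stroma, whereas Lrp1 and C1s1 had r = 0.99 there and 0.95 within luminal cells.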

How the data were processed

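The authors sorted cells by FACS, made stranded total-RNA libraries from 2 ng of RNA with 15 cycles of PCR, sequenced them paired-end at 75 bases, and counted reads per gene with STAR 2.5.2a on GRCm38.p5 with a GENCODE annotation, of which the release and the strand setting are not given in the sources used here. The deposited values are raw read counts per gene, without molecular identifiers. Symbols, coordinates and exons came from GENCODE M21, in which 50376 of 50600 IDs were found, 45737 with the same version. Groups came from the sample titles.

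Counts were filtered with filterByExpr, scaled by TMM (factors 0.833 to 1.23) and tested with edgeR 4.0.16 (R 4.3.3), two-sided, with 4 groups of a lineage or all 8 groups in the fit and Benjamini-Hochberg adjustment over all genes. Log2 CPM has a prior count of 2, and the SE is the fold change divided by the square root of F. Exact tests over mice used log2 CPM. The fits were tested on simulated data. Libraries with the same treatment and mouse number come from the same animal, so the mouse was the block of an alternative fit. Deviations of same-mouse libraries from group means correlated at 0.157 (mean of the luminal subsets) and 0.0496 (stromal subsets). Alternatives were DESeq2 1.42.0 and its size factors, limma 3.58.1 voom, library size only, no filter, a threshold of 0.05, other groups in the fit and leaving out each mouse. Named genes are the members, genes of listed complement, inducer and marker sets, and the 3 genes most correlated with each member. The members and lists were chosen with earlier results of these data known. No proteins were compared. 1 gene of the complement lists is not reported here.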

Additional observations from a re-analysis of the deposited data

Results flagged for a closer look

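Of 31 member groups of 4 untreated mice that could be tested, 7 had a library apart from the others by Dixon's criterion (a gap over 0.829 of the group's range). Its chance rate of about 1 in 20 is for normal values in independent groups. That rate cannot be applied to CPM with counts near the floor or to genes that vary together. The tdTomato+ luminal library of mouse 4 was apart in C1ra (14.2 CPM, next 8.97) and C1s1 (74.3 CPM, next 15.8), with 7.10 CPM of summed fibroblast markers, the lowest of its group. The tdTomato+ luminal library of mouse 3 was apart in Serping1 (6.08 CPM, next 0.930), with 73.6 CPM of fibroblast markers, the highest of its group. The GFP+ stromal library of mouse 2 was apart in Serping1 (1580 CPM, next 1241). The other 3 are genes near the floor, Cfb in tdTomato+ stroma of mouse 4 (1.65 CPM, next 0.0951), Cfd in tdTomato+ stroma of mouse 1 (3.23 CPM, next 0.271) and Cfd in GFP+ luminal cells of mouse 3 (0.172 CPM, the others at 0).

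The difference between GFP+ and tdTomato+ cells differed between stroma and luminal cells for C1ra (3.85), C1s1 (3.63) and C2 (3.66). C1ra was higher in every E+P-treated than in every untreated GFP+ stromal library (mean difference 0.28 in log2 CPM) and lower in every E+P-treated luminal library (-2.53 in GFP+ and -3.63 in tdTomato+ cells), and the difference between lineages in this response was not tested.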

How the results depend on the processing

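The stroma to luminal differences of all 8 members and the subset-by-lineage differences of C1ra, C1s1 and C2 were called under every alternative that gave a value. The number of members called in GFP+ against tdTomato+ luminal cells was 3, but 5 at a threshold of 0.05 or with DESeq2, and 1 to 4 without a mouse (1 without E+P-treated mouse 2). For E+P in GFP+ luminal cells it was 1, but 3 at 0.05 or with DESeq2, 2 with only the compared groups fitted, and 0 to 3 without a mouse. With no low-count filter it was 2 rather than 0 for E+P in GFP+ stroma, in tdTomato+ stroma and for their difference. For the luminal E+P difference it was 1 rather than 0 at 0.05 and with DESeq2. Over all genes, the alternatives called 16 (without E+P-treated mouse 2) to 459 (no filter) genes rather than 41 for E+P in GFP+ stroma, 0 (only the compared groups) to 840 (no filter) rather than 22 in tdTomato+ stroma, and 1 to 506 rather than 8 for their difference. In luminal cells they called 169 to 2020 (DESeq2) rather than 985 in GFP+ cells, 1140 to 3558 (DESeq2) rather than 2327 in tdTomato+ cells, and 33 to 1013 (DESeq2) rather than 376 for the difference. With library size only, the highest group means of C1ra, C1s1 and Serping1 were 509, 1056 and 1154 CPM.

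These uncalled values turned sign. With the replicate block by number, which pairs no mice across treatments, the E+P difference in GFP+ stroma was -0.0059 for C2 and 0.71 for Cfb (0.18 with voom), and with voom that of Serping1 in tdTomato+ luminal cells was 0.0302. With the mouse as replicate block the subset-by-lineage difference of C3 was 0.15 (voom 0.11), and that of Cfd was 1.59 with voom and 0.45 with DESeq2. With library size only the E+P difference between subsets of C3 was 0.0057 in stroma and 0.0292 in luminal cells. Without a mouse, the E+P difference ranged in GFP+ stroma from -0.0920 to 0.0134 (C1s1), -0.11 to 0.26 (C2) and -0.38 to 0.43 (Cfb). In tdTomato+ stroma it ranged from -1.09 to 0.0255 (C3), -0.62 to 0.16 (C4b), -0.0420 to 0.60 (C2) and -0.45 to 2.65 (Cfb), and in tdTomato+ luminal cells from -1.86 to 0.47 (Serping1). Its difference between subsets ranged in stroma from -0.79 to 0.57 (C3), -2.54 to 0.57 (Cfb) and -0.0945 to 0.27 (Serping1), and in luminal cells from -0.22 to 0.0174 (C3) and -2.47 to 0.67 (Serping1). The subset-by-lineage difference ranged from -0.37 to 0.27 (C3) and -1.16 to 1.24 (Cfd). The cause was not tested. Apart from the changes given beside the results, the mouse block changed no other call. At these depths, and with only 579 unshared exon bases for Cfb, Cfb and Cfd cannot be compared between luminal groups.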
